A study of Mus musculus with 2 samples.

Results

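Genomic imprinting is the expression of a gene mainly from the copy inherited from 1 parent, under the control of DNA methylation marks set in egg or sperm. The marks lie at control regions that often act on a whole cluster, through promoters, insulators or long noncoding RNAs that silence their neighbours in cis. In the brain many imprinted genes act in growth, feeding and maternal behaviour, and several of them switch the parental copy, or the promoter, between neurons and other cells. The set described here holds 36 imprinted genes at 17 loci, of 55536 annotated genes, chosen by symbol from a given list. The members were chosen with earlier results of these data known. All 36 were found in both gene tables. By textbook knowledge 17 are expressed from the paternal copy and 7 from the maternal copy, and the other 12 are imprinted in some transcripts or tissues only. The deposited tables are not divided by allele, so the parental copy is background here and was not measured.

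The libraries were made from cortex of the left hemisphere of 2 B6CASTF1/J females aged 36 days. B6CASTF1/J mice are the F1 offspring of the strains C57BL/6J and CAST/EiJ, in which the parental copies of a gene differ in sequence. The labels place both mice in 1 group, and name no treatment, so the values below are levels in cortex with their spread over both animals. Each library was made from 300 ng of total RNA and carried ERCC spike-ins, synthetic RNAs of known amount. Replicate 2 held 35188800 expected counts (reads divided among the genes they match) against 29417200 in replicate 1, both rounded to 100. With 1 library per mouse no test was possible, and each SD is over n = 2.

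Levels are given in TPM, an abundance corrected for length and scaled to the same total in each library, and 30 of the 36 imprinted genes reached 1 TPM in both libraries. The same share was 26.1% over all annotated genes. Of the 31 protein-coding members 27 reached it, against 58.0% of all protein-coding genes. The mean TPM of 3 members lay above 100, that of 18 between 10 and 100, that of 9 between 1 and 10 and that of 6 below 1. Within this set median levels differed by parental copy. The ranges of mean TPM overlapped, with 0 to 5.26 for maternally and 0.37 to 144 for paternally expressed genes. Imprinted genes outside the set, such as Meg3, were not part of this comparison. Paternally expressed genes had a median of 13.3 TPM in replicate 2 and 15.5 TPM in replicate 1, and 16 of 17 reached 1 TPM. Maternally expressed genes had medians of 0.15 and 0.21 TPM in replicates 2 and 1, and only Cdkn1c and Zim1 of the 7 reached 1 TPM. All 12 genes imprinted by isoform or tissue reached it, with medians of 28.3 and 28.1 TPM in replicates 2 and 1. TPM was lower in replicate 2 for 29 of the 36 genes. This direction was general, since 82.2% of the genes with at least 1 TPM in both libraries were also lower, and the short 7SL RNA alone took 30.1% of TPM in replicate 2 and 24.3% in replicate 1. Ratios between the mice are therefore taken from scaled counts further on.

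**Figure D1:**
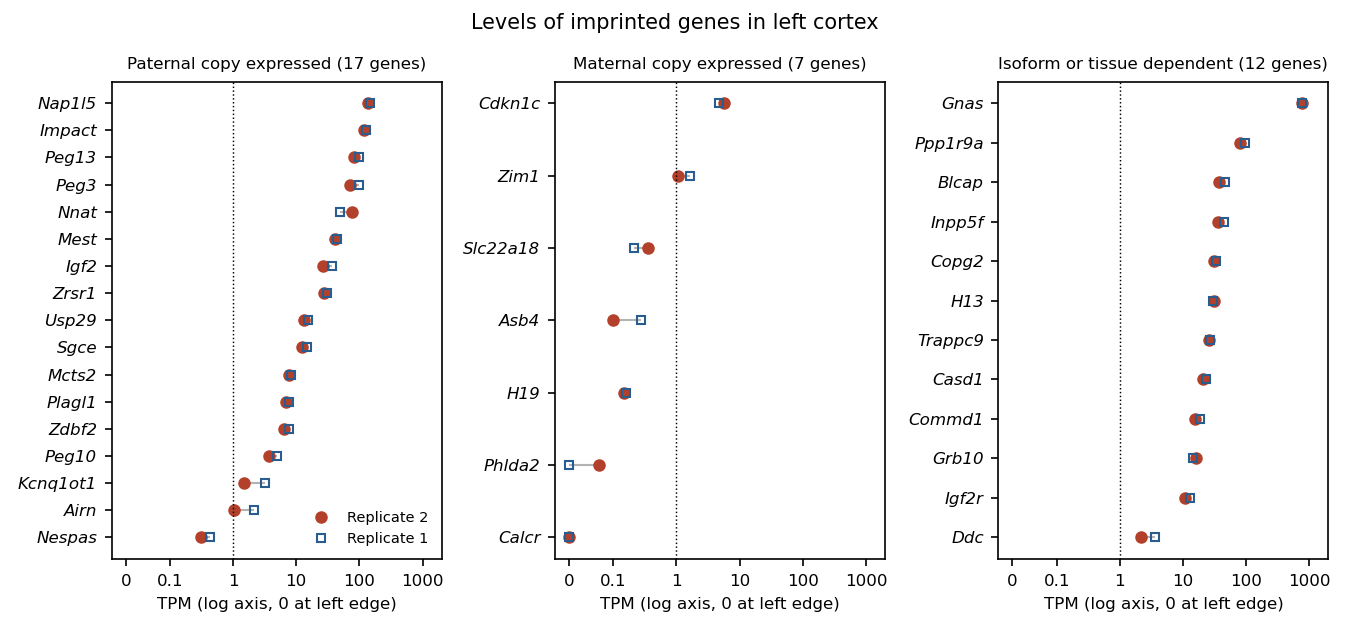
TPM of each of the 36 imprinted genes on a log axis, by the parental copy known to be expressed, with a filled circle for replicate 2, an open square for replicate 1 and a dotted line at 1 TPM. Values of 0 are drawn at the left edge. Gnas stands highest at 773 TPM in replicate 2 and 775 TPM in replicate 1, and 5 of the 7 maternally expressed genes lie left of the line.

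Among paternally expressed protein-coding genes the highest was Nap1l5, an intronless gene related to nucleosome assembly proteins, with 138 TPM in replicate 2 and 149 TPM in replicate 1. Impact, which restrains the stress kinase GCN2, followed with 119 and 129 TPM in replicates 2 and 1. The ranges of both genes over the mice did not overlap with that of Peg3, a zinc finger gene, with 71.5 and 97.3 TPM in replicates 2 and 1. Nnat, which encodes the small membrane protein neuronatin, had 76.3 TPM in replicate 2 and 48.9 TPM in replicate 1, and its order with Peg3 differed between the mice. Mest, which encodes a protein of the alpha/beta hydrolase family, had 40.5 and 44.8 TPM in replicates 2 and 1. Zrsr1, a gene for a splicing factor related to U2AF, had 27.5 and 30.2 TPM in the same order. The fetal growth factor gene Igf2 had 26.95 TPM in replicate 2 and 36.5 TPM in replicate 1, overlapping the range of Zrsr1. Lower down stood Sgce, which encodes epsilon-sarcoglycan, at 13.3 ± 1.69 TPM (SD, n = 2), and Mcts2, whose parent gene acts in translation reinitiation, at 7.92 ± 0.34 TPM. The zinc finger genes Plagl1 and Zdbf2 had 7.26 ± 0.60 and 7.15 ± 0.898 TPM, which overlap. Peg10, a gene derived from a retrotransposon and needed in the placenta, had 4.32 ± 0.827 TPM. All of these values rest on at least 100 counts a library.

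The Peg3 domain on chromosome 7 showed how unequal the genes of 1 cluster were. Peg3 (ENSMUSG00000002265.16, build mm10, chr7:6703892-6730431, minus strand) and Usp29, a deubiquitinase gene on the plus strand, start 147 bases apart and run away from each other. Usp29 had 13.3 TPM in replicate 2 and 15.5 TPM in replicate 1. Peg3 was thus 5.36 times as abundant as Usp29 in replicate 2 and 6.30 times in replicate 1. Zim1, the maternally expressed zinc finger gene next to Peg3, had only 1.04 TPM in replicate 2 and 1.62 TPM in replicate 1, from 73 and 76 counts. The shared start of the paternally expressed pair is shown because the windows of both genes overlap. The RefSeq promoter windows of both genes (build GRCm38.p6, 250 bases before to 50 after the start) share 263 bases. The Peg3 window, chr7:6730370-6730669 on the minus strand, holds 13 CG dinucleotides, the sites of DNA methylation, given in capitals. As many or more were held by 37.9% of the 32851 promoter windows of the table, whose median was 7.
Peg3 and Usp29: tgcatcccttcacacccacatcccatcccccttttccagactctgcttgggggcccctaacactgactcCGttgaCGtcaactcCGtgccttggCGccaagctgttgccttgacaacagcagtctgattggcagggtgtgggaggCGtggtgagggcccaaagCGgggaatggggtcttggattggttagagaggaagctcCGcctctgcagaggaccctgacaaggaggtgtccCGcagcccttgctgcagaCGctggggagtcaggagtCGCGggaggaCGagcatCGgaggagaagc

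The maternally expressed genes of this set were low in cortex with 1 exception. Cdkn1c, which encodes the cell cycle inhibitor p57, had 5.75 TPM in replicate 2 and 4.76 TPM in replicate 1, from 182 and 131 counts. Slc22a18, a transporter gene of the same cluster, had 0.36 and 0.21 TPM from 9 and 5 counts in replicates 2 and 1. Phlda2, a restraint on placental growth, had 1 count in replicate 2 and 0 in replicate 1. Both neighbours were therefore barely sampled at this depth. Asb4, a gene of a ubiquitin ligase adaptor found in hypothalamus, had 8 counts in replicate 2 and 16 in replicate 1. Calcr, the calcitonin receptor gene, had 0 counts in both libraries, which allows up to 0.0404 TPM in replicate 2 and 0.0547 TPM in replicate 1 (3 counts per library, counting error only). Of 7 hypothalamic marker genes 1 reached 1 TPM in both libraries, with sums of 3.28 TPM in replicate 2 and 2.77 TPM in replicate 1. The part of that region in the levels of Asb4 and Calcr was not tested. H19, the noncoding RNA beside Igf2, had 8 counts in replicate 2 and 2 in replicate 1, at 0.15 and 0.16 TPM. Igf2 stood far above it, with 1294 counts in replicate 2 and 1347 in replicate 1.

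The noncoding members covered a wide range. Peg13, a brain RNA made inside an intron of Trappc9, was the highest with 82.2 TPM in replicate 2 and 97.8 TPM in replicate 1. Kcnq1ot1, the antisense RNA that silences the cluster of Cdkn1c on the paternal chromosome, had 1.48 TPM in replicate 2 and 3.23 TPM in replicate 1. Its level per length was low although its counts were many, 3477 in replicate 2 and 5618 in replicate 1, because the annotation gives it 1 exon of 93092 bases (chr7:143203458-143296549, minus strand). Airn, the antisense RNA that silences Igf2r on the paternal copy, had 1.02 and 2.14 TPM in replicates 2 and 1, from 25 and 36 counts. Nespas, antisense to Gnas, had 0.31 TPM in replicate 2 and 0.43 TPM in replicate 1, from 11 and 10 counts. Of its exon bases 31.4% overlap exons of Gnas on the opposite strand. The strand setting of the counting is not given in the sources used here. Counts of both genes were whole numbers in both libraries, and the authors' SD of the count from dividing reads was 0. Whether the partners shared reads where they overlap was not tested.

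Genes imprinted in part or in some tissues were all present. Gnas, which encodes the G protein subunit Gs alpha, led the whole set at 773 TPM in replicate 2 and 775 TPM in replicate 1 and ranked 71 among all annotated genes by mean TPM. Ppp1r9a, which encodes the spine protein neurabin 1, had 80.8 and 95.5 TPM in replicates 2 and 1. Blcap, Inpp5f, Copg2, H13, Trappc9, the sialic acid acetylation gene Casd1, Commd1, Grb10 and Igf2r ran from 41.6 ± 6.92 TPM for Blcap to 11.9 ± 1.37 TPM for Igf2r, the receptor that clears the Igf2 protein. Ddc, the decarboxylase that makes dopamine and serotonin, had 2.20 TPM in replicate 2 and 3.56 TPM in replicate 1. None of 6 markers of monoamine neurons reached 1 TPM in both libraries, with sums of 1.35 TPM in replicate 2 and 1.07 TPM in replicate 1.

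At 5 loci an imprinted gene lies inside an intron of a host gene, and host and guest differed in level to an extent that varied between loci. Peg13 was above its host Trappc9, a vesicle tethering gene, by ratios of 3.17 in replicate 2 and 3.70 in replicate 1. Zrsr1 was above Commd1, a gene of copper and endosome handling, by 1.75 in replicate 2 and 1.63 in replicate 1. Nnat was above Blcap by 2.08 in replicate 2 but only by 1.05 in replicate 1. Mcts2 was the exception, with 0.25 of the level of H13, the signal peptide peptidase gene, in replicate 2 and 0.27 in replicate 1. Nap1l5 gave 1.93 of the level of Herc3 in replicate 2 and 0.94 in replicate 1, so the order of guest and host turned between the mice. By the second quantifier these ratios were 1.22 and 0.64 in the same order. The mean over the mice was 1.44 by the first quantifier and 0.93 by the second, so it too lay on different sides of 1. Herc3 itself had 71.5 TPM in replicate 2 and 159 TPM in replicate 1, from 4372 and 6770 counts. Exons of host and guest do not overlap at 4 of the loci, while 412 exon bases of Zrsr1 and Commd1 do, on opposite strands. Peg13 and Mcts2 lie on the same strand as their hosts. The part of reads from host introns in the counts of these guests was not tested. Commd1 also shares 294 exon bases with Gm28048 on its own strand, so its level is the less certain of the pair.

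Mcts2 and Zrsr1 arose as retrocopies of X-linked genes, and here they took opposite places beside their parents. Zrsr1 exceeded Zrsr2 by ratios of 1.68 in replicate 2 and 1.35 in replicate 1. Mcts2 held 0.28 of the level of Mcts1 in replicate 2 and 0.24 in replicate 1. Counts of Zrsr1 and Mcts2 were whole numbers in both libraries, with no remainder at the 2 decimals deposited, and the authors' posterior SD of the count, from dividing reads, was 0 for both genes. For Igf2, Commd1, Inpp5f, Blcap and Kcnq1ot1 this SD was above 0, from 0.04 counts for Kcnq1ot1 in replicate 1 to 7.91 counts for Inpp5f in replicate 2, with 0 for Blcap in replicate 1.

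Partners in 1 cluster also differed in level. Sgce and Peg10 start 99 bases apart on opposite strands, and Sgce was the higher by 3.26 in replicate 2 and 2.97 in replicate 1. Mest exceeded Copg2, a gene of the COPI vesicle coat, by 1.28 in replicate 2 and 1.36 in replicate 1. Mest and Copg2 overlap over 912 exon bases on opposite strands. Grb10, an adaptor that restrains insulin and growth factor signalling, exceeded Ddc by 7.24 in replicate 2 and 4.01 in replicate 1. Igf2r exceeded Airn by 10.7 in replicate 2 and 6.01 in replicate 1, but by 3.22 and 3.06 by the second quantifier. Cdkn1c exceeded Kcnq1ot1 by 3.89 in replicate 2 and 1.47 in replicate 1 per length. In expected counts, where a long exon gathers more reads, the mean ratio over the mice was only 0.0378. Over the 16 partner and parent pairs 15 had the same gene higher in both mice in TPM, the exception being Nap1l5 and Herc3.

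**Figure D2:**
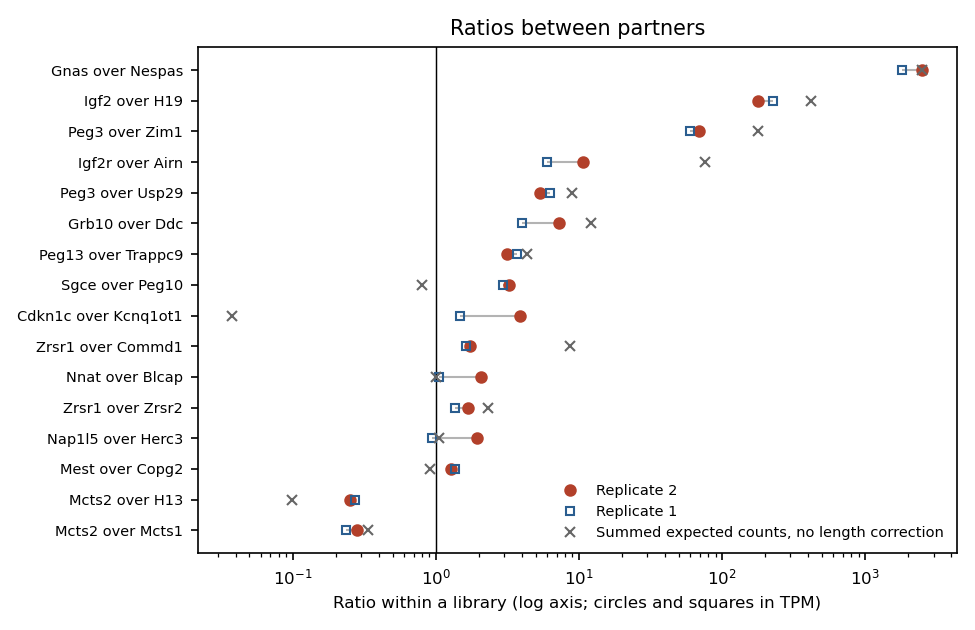
Ratio of the first to the second gene of 16 pairs within each library on a log axis, with circles for replicate 2 and squares for replicate 1 in TPM. Crosses mark the ratio of expected counts, taken within each library and averaged over both, although the legend calls these counts summed. The circle and the square lie on the same side of 1 for 15 pairs, and Nap1l5 over Herc3 has 1 library on each side. Which gene of a pair is the first follows no rule.

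Gnas is transcribed from several promoters that differ in imprinting. Nesp is made from the maternal copy, XL alpha s and exon 1A from the paternal copy, and Gs alpha from both copies in most tissues. The annotation gives Gnas 24 transcripts, which were grouped by their first base. Transcripts of the Gs alpha start held 731 TPM in both replicate 2 and replicate 1, or 94.5% ± 0.16 of the gene (SD, n = 2). Those that start at exon 1A held 36.2 TPM in replicate 2 and 36.7 TPM in replicate 1. Nesp transcripts held 0.16 and 0.84 TPM in replicates 2 and 1, and XL alpha s transcripts 0.04 and 0 TPM. Gs alpha therefore made up nearly all Gnas RNA of this cortex in the first transcript table. The authors' second quantifier gave Gs alpha 70.4% in replicate 2 and 73.8% in replicate 1, and gave exon 1A 29.4% and 25.4% in the same order. That gap between the quantifiers was larger than the spread between the mice. The promoter windows are printed because they differ in CG content as well as in use. The Nesp window (chr2:174284070-174284369, plus strand) holds 16 CG, the exon 1A window (chr2:174327499-174327798) 27 and the Gs alpha window (chr2:174329756-174330055) 40, again in capitals and on build GRCm38.p6. As many or more were held by 33.0%, 15.5% and 3.91% of all windows.
Gnas Nesp: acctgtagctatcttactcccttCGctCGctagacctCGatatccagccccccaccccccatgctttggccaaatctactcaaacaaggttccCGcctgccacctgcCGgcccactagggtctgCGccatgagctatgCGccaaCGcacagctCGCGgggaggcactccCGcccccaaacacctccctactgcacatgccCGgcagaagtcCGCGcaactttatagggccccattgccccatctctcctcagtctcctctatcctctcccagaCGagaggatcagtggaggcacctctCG
Gnas exon 1A: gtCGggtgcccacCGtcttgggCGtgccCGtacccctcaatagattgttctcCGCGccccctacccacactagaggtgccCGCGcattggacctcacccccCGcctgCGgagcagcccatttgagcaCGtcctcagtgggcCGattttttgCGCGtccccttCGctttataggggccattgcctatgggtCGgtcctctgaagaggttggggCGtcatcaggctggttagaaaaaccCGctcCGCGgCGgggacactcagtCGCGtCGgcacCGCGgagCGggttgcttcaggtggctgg
Gnas Gs alpha: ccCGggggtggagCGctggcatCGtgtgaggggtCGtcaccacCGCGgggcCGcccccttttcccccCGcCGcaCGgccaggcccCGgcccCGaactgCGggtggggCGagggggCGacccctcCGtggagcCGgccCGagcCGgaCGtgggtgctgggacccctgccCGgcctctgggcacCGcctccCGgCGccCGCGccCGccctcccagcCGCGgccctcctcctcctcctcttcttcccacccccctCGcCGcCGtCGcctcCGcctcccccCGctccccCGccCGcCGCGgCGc

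Gs alpha occurs in a long and a short form, which differ by exon 3. The full-length transcript with this exon, Gnas-208, had 454 TPM in replicate 2 and 433 TPM in replicate 1. The full-length transcripts without it, Gnas-206 and Gnas-207, summed to 226 TPM in replicate 2 and 246 TPM in replicate 1. The long form thus took 66.7% in replicate 2 and 63.8% in replicate 1, and 63.0% and 63.5% by the second quantifier. The share held between quantifiers although they divided the short form in opposite ways, with Gnas-206 at 191 TPM in replicate 2 and 221 TPM in replicate 1 by the first and at 9.71 and 16.7 TPM by the second. Exon 3 spans 45 bases at chr2:174336747-174336791 and is printed in capitals between the ends of its neighbouring exons, beside the junction that skips it.
Gnas with exon 3: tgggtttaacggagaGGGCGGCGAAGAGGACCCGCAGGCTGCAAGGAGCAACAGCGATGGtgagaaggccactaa
Gnas without exon 3: tgggtttaacggagatgagaaggccactaa

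Grb10 is made from the maternal copy in most tissues and from the paternal copy in neurons, from different promoters. Transcripts that begin at the upstream starts held 7.70 TPM in replicate 2 and 6.20 TPM in replicate 1. Those that begin about 10.7 kb downstream held 6.64 and 6.76 TPM in replicates 2 and 1. The shares were 48.3% and 43.4% upstream and 41.7% and 47.3% downstream, so the order turned between the mice. The second quantifier gave the upstream starts 45.1% in replicate 2 and 67.2% in replicate 1. It gave the downstream starts 24.6% and 24.4% in the same order. Both quantifiers thus found both groups of starts in both libraries, without an order that held throughout. The turn was seen only in TPM of the first quantifier. Its expected counts, not corrected for length, were 966 upstream and 312 downstream in replicate 2, and 575 and 269 in replicate 1. By the second quantifier the upstream starts were also the higher in both mice. The upstream window (chr11:12037371-12037670, minus strand) holds 45 CG, reached by 1.93% of all windows, and the downstream window (chr11:12027922-12028221) 9, reached by 45.8%. Which of these annotated starts are the published neuronal ones was not tested.
Grb10 upstream: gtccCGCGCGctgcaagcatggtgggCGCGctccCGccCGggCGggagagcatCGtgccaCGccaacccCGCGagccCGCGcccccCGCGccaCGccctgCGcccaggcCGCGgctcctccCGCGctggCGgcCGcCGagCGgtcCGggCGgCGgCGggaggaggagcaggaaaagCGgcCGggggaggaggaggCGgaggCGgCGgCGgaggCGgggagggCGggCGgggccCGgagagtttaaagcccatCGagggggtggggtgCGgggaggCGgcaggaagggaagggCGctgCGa
Grb10 downstream: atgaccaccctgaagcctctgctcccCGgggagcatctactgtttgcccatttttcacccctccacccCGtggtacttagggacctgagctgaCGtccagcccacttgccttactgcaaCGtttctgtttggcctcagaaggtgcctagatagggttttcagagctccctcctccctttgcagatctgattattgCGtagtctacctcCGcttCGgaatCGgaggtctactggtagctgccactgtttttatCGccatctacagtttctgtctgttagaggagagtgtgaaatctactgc

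Inpp5f encodes a phosphoinositide phosphatase, and its short brain transcripts, which begin inside the gene, are the paternally expressed ones. Transcripts with starts about 76.2 kb downstream of the full-length start held 24.4 TPM in replicate 2 and 32.1 TPM in replicate 1. Full-length transcripts held 8.18 TPM in replicate 2 and 8.64 TPM in replicate 1. The short transcripts therefore outweighed the full-length ones in both mice, with 67.7% of the gene in replicate 2 and 72.2% in replicate 1, against 22.7% and 19.4% for the full-length ones. The second quantifier gave the short ones 60.3% ± 2.35 and the full-length ones 16.4% ± 1.80. Inpp5f-206, annotated with a retained intron and starting between these groups, held a mean of 7.75% by the first quantifier and 20.7% by the second. Among the short transcripts Inpp5f-203 was first in both tables, at 14.95 and 17.4 TPM in replicates 2 and 1 in the first. The mean share of Inpp5f-208 was 29.6% by the first and 2.99% by the second, and that of Inpp5f-209 0% and 25.8%. The pseudogene Gm43580 overlaps 284 exon bases of Inpp5f on the same strand, and some reads were divided between genes.

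Mest is imprinted from its main promoter, while transcripts from upstream starts are known to come from both copies. Transcripts of the main start held 39.0 TPM in replicate 2 and 43.5 TPM in replicate 1, or 96.7% ± 0.50 of the gene. The upstream group was listed at 0 in both libraries in the first table. In the second table it took 18.2% in replicate 2 and 28.8% in replicate 1, nearly all the rest being the main start. The main start led in both mice by both quantifiers, and the presence of upstream transcripts depended on the quantifier.

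**Figure D3:**
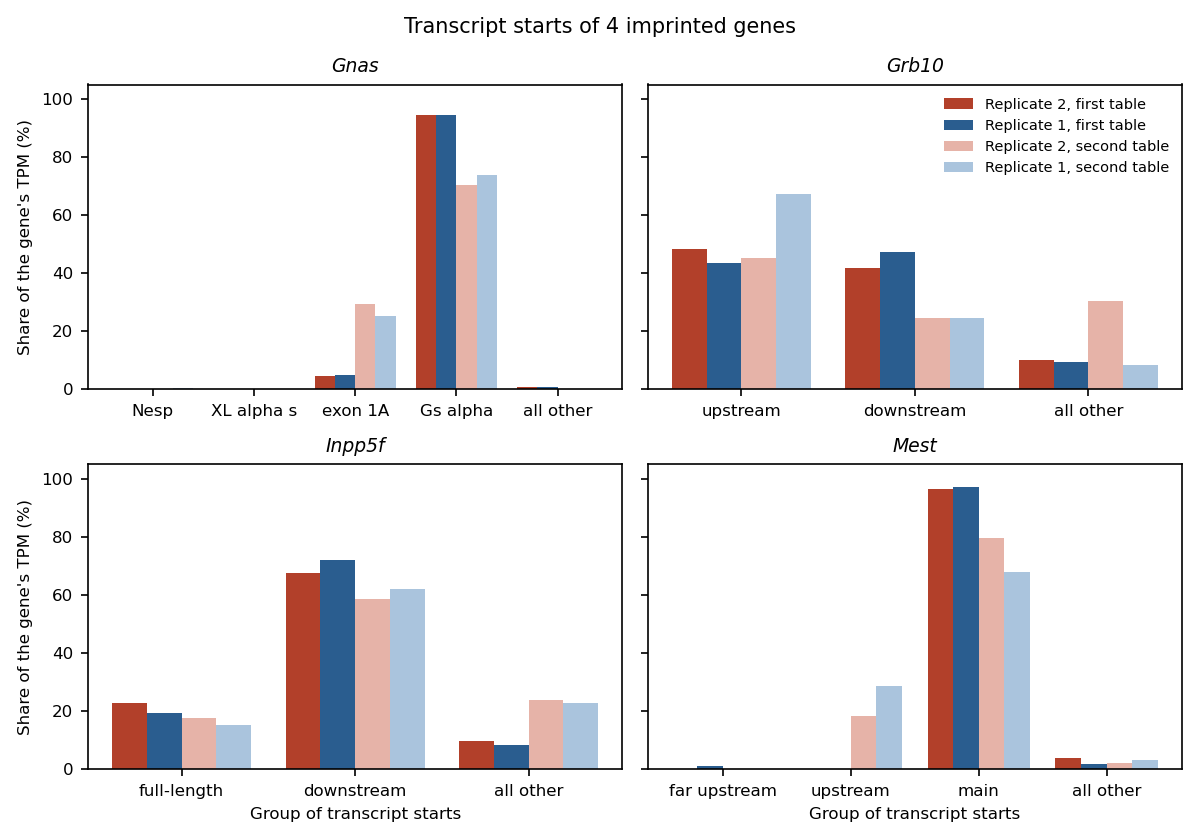
Share of the TPM of Gnas, Grb10, Inpp5f and Mest taken by each group of transcript starts, with dark bars for the first transcript table and pale bars for the second, replicate 2 in red to the left of replicate 1 in blue. Gs alpha of Gnas, the downstream starts of Inpp5f and the main start of Mest lead in all 4 bars, while the 2 groups of Grb10 are close in the dark bars.

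Promoter windows were found for 28 of the 36 genes, and CG content overlapped between genes of high and low level. Over the 24 such genes with at least 1 TPM in both libraries, the window with the most CG ranged from 3 in Airn to 48 in Ppp1r9a. In the 4 genes below that level it ranged from 2 in Slc22a18 to 29 in Calcr. Sgce, H19, Cdkn1c, Peg10, Impact, Nespas, Peg13 and Trappc9 had no window.

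Between the mice the imprinted genes were mostly close. With TMM scaling of the counts, which sets library sizes from genes that change little, the median log2 ratio of replicate 2 over replicate 1 was 0.022 over the 32 members with a mean count of at least 10, with 17 higher and 15 lower. Over all 18187 such genes it was also 0.022. None of the 27 members whose mean count reached 100 differed by 2-fold with TMM, against 0.713% of 12615 genes. By direction this background was 0.277% higher and 0.436% lower in replicate 2. With spike-ins 1 member, Kcnq1ot1, differed by 2-fold, and the share of all genes was not computed under that scaling. By 1.5-fold 2 of 27 differed with TMM, against 3.08% of all genes, 1 higher (background 1.16%) and 1 lower (1.93%). In all 24 of the 27 lay within 0.3 of 0 on the log2 scale, or 88.9%, and 85.4% of all genes did. These shares are near the background of the libraries. The balance of directions among the 27 depended on the scaling. With TMM 17 were higher and 10 lower in replicate 2, with total counts 14 and 13, by the second quantifier 20 and 7, and with spike-ins 1 and 26.

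The member higher in replicate 2 was Nnat, with 2056 counts in replicate 2 and 984 in replicate 1. Its log2 ratio was 0.87 (95% counting interval 0.76 to 0.98), and 0.95 by the second quantifier. Blcap, whose intron holds Nnat on the opposite strand, had 1622 and 1350 counts in replicates 2 and 1 and a log2 ratio of 0.072. The guest thus differed between the mice while the ratio of its host lay near 0. The next highest was Grb10, with 1340 counts in replicate 2 and 877 in replicate 1 and a log2 ratio of 0.42 (0.30 to 0.54). Under spike-in scaling, which moves the median of all genes by -0.46, Nnat had a log2 ratio of 0.40 and Grb10 -0.047. Relative to the median of all genes Nnat stood at 0.85 and Grb10 at 0.40 with TMM, and at 0.84 and 0.39 with spike-ins. In bulk tissue, fewer cells of a type and less RNA per cell cannot be told apart.

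The member lower in replicate 2 was Kcnq1ot1, with a log2 ratio of -0.88 (-0.95 to -0.82), or 1.85-fold lower, and -0.86 by the second quantifier. With spike-in scaling it was -1.35, past 2-fold, while relative to the median of all genes it was -0.91 under both scalings. Among the other noncoding members Airn had a log2 ratio of -0.67 (-1.52 to 0.058) and Nespas -0.046 (-1.43 to 1.34). Peg13 had -0.0071 (-0.049 to 0.035) and 0.050 by the second quantifier, and H19, from 8 and 2 counts in replicates 2 and 1, had 1.20 (-0.52 to 5.08). The intervals of these 4 include 0. The list of 7 nuclear noncoding RNAs, led by Malat1, was lower in replicate 2 throughout, with a median of -0.78 and sums of 3973 TPM in replicate 2 and 8141 TPM in replicate 1. The part of these RNAs in the ratio of Kcnq1ot1 was not tested. Antisense and sense intronic genes (529 at the same count minimum) had a median of -0.23.

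Igf2 had a log2 ratio of -0.25 (-0.36 to -0.14) with TMM and -0.72 with spike-ins, short of 1.5-fold with TMM. In the brain Igf2 is made chiefly by choroid plexus, leptomeninges and vessels. The 7 choroid plexus markers summed to 11.2 TPM in replicate 2 and 76.4 TPM in replicate 1, 2 of 7 reached 1 TPM in both, and all 5 that reached a mean count of 10 were lower in replicate 2, at a median of -1.12. Ttr, the transthyretin gene, made most of that sum, with 8.29 TPM in replicate 2 and 70.1 TPM in replicate 1, and no marker was at 0 in either library. Meningeal fibroblast markers summed to 33.6 TPM in replicate 2 and 34.6 TPM in replicate 1, with 6 of 7 at 1 TPM in both and a median log2 ratio of 0.17. Mural cell markers summed to 63.2 and 69.9 TPM in replicates 2 and 1, with all 7 at 1 TPM in both and a median log2 ratio of 0.10. Endothelial markers summed to 75.96 and 88.5 TPM in replicates 2 and 1, with all 7 at 1 TPM in both and a median log2 ratio of 0.041. The part of these cells in the ratio of Igf2 was not tested. Gm49394, a gene model on the same strand, covers 62.8% of the exon bases of Igf2 and was listed at 0 in both libraries, so the division of reads between the models is uncertain.

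**Figure D4:**
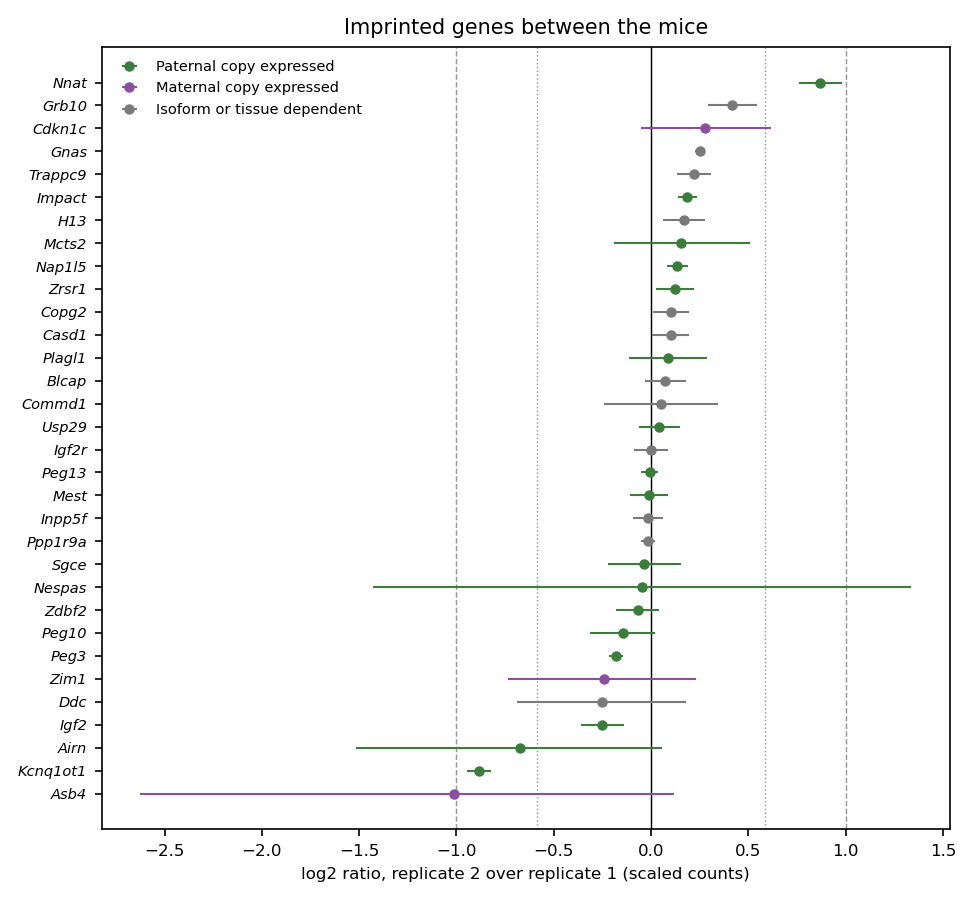
Log2 ratio of replicate 2 over replicate 1 for the 32 imprinted genes of mean count 10 or more, with 95% exact counting intervals, coloured by the parental copy known to be expressed. Dotted lines mark 1.5-fold and dashed lines 2-fold. Nnat at 0.87 and Kcnq1ot1 at -0.88 lie past the dotted lines with their whole intervals, and Asb4 and Airn have wide intervals from few counts.

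Genes that keep imprinting marks through development were also read. Of 13 such genes 11 reached 1 TPM in both libraries, with a median of 11.9 TPM in replicate 2 and 14.8 TPM in replicate 1. Among them Zfp57 and Zfp445, zinc finger genes that bind methylated control regions, had 4.65 and 54.6 TPM in replicate 2 and 7.59 and 79.9 TPM in replicate 1. Trim28, the corepressor they recruit, had 80.5 TPM in replicate 2 and 89.4 TPM in replicate 1, and the maintenance methyltransferase gene Dnmt1 had 16.3 and 18.1 TPM in the same order. Dppa3, a gene of egg and early embryo, had 0 counts in both. The list's median log2 ratio between the mice was 0.00045, with 6 of the 12 measured members higher and 6 lower. Of 23 host, parent and neighbour genes 12 reached 1 TPM in both libraries, and their median log2 ratio was 0.076. Neuron markers were all present, with a median of 390 TPM in replicate 2 and 459 TPM in replicate 1 and a median log2 ratio of 0.10.

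**Figure D5:**
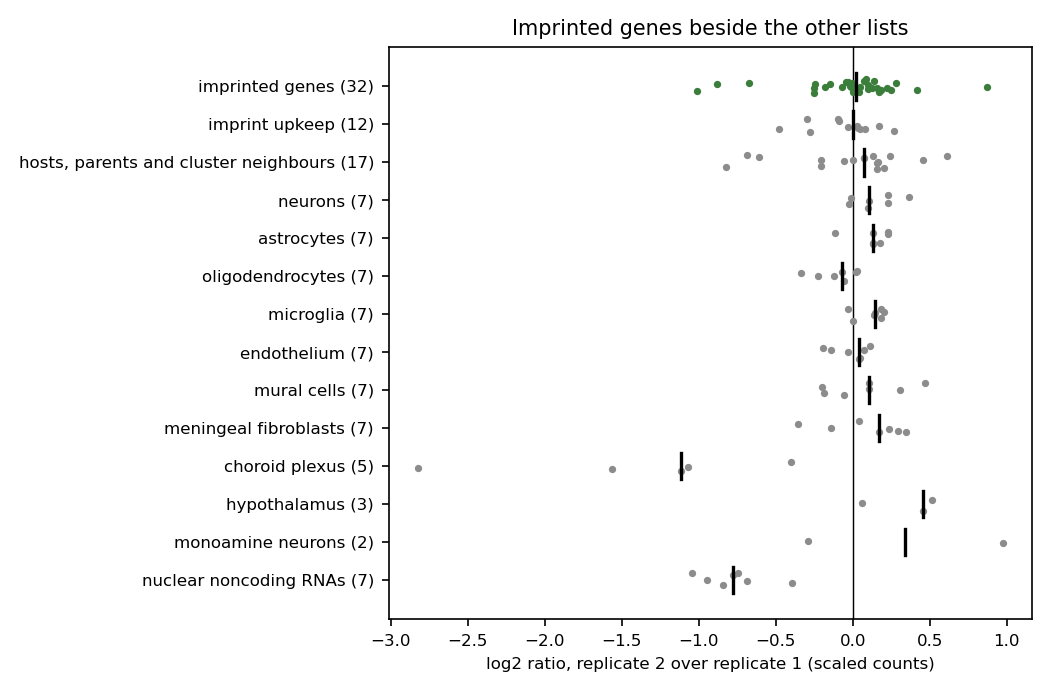
Log2 ratio of replicate 2 over replicate 1 for each gene of mean count 10 or more in the set of imprinted genes (green) and in 13 other lists (grey), with a black bar at each median and the number of genes in brackets. The median of the imprinted genes is 0.022, while those of choroid plexus markers and nuclear noncoding RNAs are -1.12 and -0.78. Points are spread vertically for legibility only.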

How the data were processed

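Total RNA-seq libraries of left cerebral cortex from 2 female B6CASTF1/J mice were used, 1 per mouse. By the labels these are different animals under 1 donor record, so p-values could in any case describe these samples only, and none was computed. Per the labels the build is mm10. Not given in the sources used here are the aligner, its version and the strand setting of the counting. Reads were matched to 1 reference sequence, and any loss of reads from the CAST/EiJ copy was not tested.

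Per the file headers, the authors' gene table and first transcript table hold expected counts (reads divided among the features they match), TPM and FPKM. The authors also give, in the first transcript table, each transcript as a percent of its gene, per the file headers. Estimated counts and TPM of another quantifier fill the authors' second transcript table, per the file headers. TPM as deposited is scaled over all rows, spike-ins included. The 26248 rows named only by number were not used.

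Levels are TPM as deposited, with mean ± SD. Shares of starts are sums of transcript TPM over starts at most 1500 bases apart. Ratios are log2 ratios of CPM (counts scaled to library size) of replicate 2 over replicate 1, from expected counts rounded to whole numbers, with TMM library sizes in edgeR 4.0.16 (R 4.3.3) and a prior count of 2. Each ratio has a 95% interval, obtained by the exact Clopper-Pearson method for the fraction of a gene's counts that replicate 2 holds. Molecular identifiers are not recorded, so these intervals and the 3-count floor describe counting error alone. Replicates 2 and 1 held 35188800 and 29417200 expected counts. DESeq2 1.42.0 gave alternative size factors. Counts were simulated from the gene means of these libraries with an assumed spread, not one estimated from the mice. All 50 genes changed 4-fold upward and all 50 changed 4-fold downward passed the 2-fold rule, and 0 of 12413 unchanged genes did. Of genes changed 1.5-fold, 6 of 50 upward and 2 of 50 downward passed it. The simulation checked the calculation only, and the 1.5-fold rule was not checked in this way. The rest used Python 3.11.15, pandas 2.3.3, numpy 2.4.6, matplotlib 3.10.9 and scipy 1.17.1.

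Promoter windows are those of RefSeq on GRCm38.p6, and the exon 3 sequence is from the GENCODE M21 transcripts. The CG motif reads the same on both strands. All 36 members are named, and of Gnas, Grb10, Inpp5f and Mest any transcript with at least 5% of its gene in both libraries by either transcript table could be named. Other genes were named where a result on a member turns on them. The members and lists were chosen with earlier results of these data known.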

Additional observations from a re-analysis of the deposited data

How the results depend on the processing

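With 1 group there is no contrast between conditions. No paired analysis was possible because both libraries belong to 1 group and no test was run. The number of members 2-fold apart was 0 in the analysis above and 1 (Kcnq1ot1, at -1.35 on the log2 scale) under spike-in scaling. It was 1 (Asb4) with a mean count of at least 10 and 2 (Asb4 and H19) with no count minimum. The counting intervals of Asb4 (-2.62 to 0.12) and H19 (-0.52 to 5.08) include 0. The number 1.5-fold apart was 2, and 4, 4 and 5 under the same settings. The share of all genes was not computed under these other settings, so these counts have no background beside them. The median log2 ratio of members was -0.43 under spike-in scaling, which moved all genes to -0.44. DESeq2 size factors, upper quartile and total count sizes, a prior count of 0.5 and the second quantifier moved none of these counts by over 1.5 times. The number of members at 1 TPM was 30 with either library alone. Without correction for length, in expected counts, the mean ratio over the mice was 0.0378 for Cdkn1c over Kcnq1ot1. It was 0.800 for Sgce over Peg10 and 0.913 for Mest over Copg2, all below 1 in place of above it. For Nnat over Blcap this mean was 0.998, with the mice on different sides of 1. Nnat had 2056 counts against 1622 for Blcap in replicate 2, and 984 against 1350 in replicate 1. Genes with few counts, such as H19, Phlda2, Slc22a18 and Nespas, are limited by depth. The shares of starts of Gnas, Grb10, Inpp5f and Mest moved with the quantifier, as did 5 partner ratios, most of all Igf2r over Airn at 3.14 in place of 8.36 and Igf2 over H19 at 132 in place of 204. The cause was not tested.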
